A study of Mus musculus with 20 samples.

Results

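B cell and plasma cell genes were followed through a single-cell RNA sequencing (scRNA-seq) data set of the injured mouse spinal cord. The members were 9 genes, taken by symbol from the 16003 genes of the count table: Cd79a, Cd79b, Ms4a1, Vpreb3, Spib, Ly6d, Igj, Mzb1 and Xbp1. All 9 were in the table. Cords came, per the labels, from female C57BL/6J mice of 8 to 10 weeks that ate vehicle chow or chow with the Csf1r inhibitor PLX5622 at 1200 ppm, a diet that depletes microglia, for 2 weeks before surgery and until the end point. The study's own text also gives another dose and age. Surgery was a sham laminectomy or a contusion spinal cord injury (SCI) at thoracic level T9. The groups were sham, 7 days post-injury (dpi) and 28 dpi under each diet, with the sham cords labelled for both days. Each of the 6 groups was 1 library from a pool of 3 to 4 mice, so there was no replicate and no test between groups. The cords were not perfused and kept their meninges, so that B cells of blood, meninges and cord tissue cannot be told apart. The 14 bulk RNA samples of the series were not analysed here.

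B cells recognise antigen with a surface antibody. Cd79a and Cd79b are the signaling chains that carry this receptor, and Ms4a1 encodes CD20 on the surface of mature B cells. Vpreb3 belongs to the surrogate light chain family and is known from B cell precursors in bone marrow and from newly formed B cells. Spib is an Ets family transcription factor of B cells and plasmacytoid dendritic cells (pDCs), and Ly6d is a surface protein found on lymphoid progenitors committed to the B lineage, on B cells and on some pDCs. A plasma cell is a B cell that has turned to secretion of antibody. Igj, the older symbol of Jchain, encodes the chain that joins IgM and IgA into polymers. Mzb1 is a chaperone that helps antibody fold in the endoplasmic reticulum, and Xbp1 is the transcription factor of the unfolded protein response that plasma cells need and that many other secretory cells use.

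The members lie apart in the genome. In GRCm38.p6, Cd79a spans chr7:24897497-24901858, Spib chr7:44525995-44532087, Vpreb3 chr10:75943024-75949657, Xbp1 chr11:5520641-5525993, Cd79b chr11:106311341-106314562, Ly6d chr15:74762056-74763567, Ms4a1 chr19:11249679-11266149 and Igj chr5:88519809-88527897. RefSeq promoter sequence was at hand for 5 of the 9 members. The promoter bases of Vpreb3 and Cd79a are shown because Vpreb3 differed most between time points among the members with UMIs in every library, while Cd79a served as its measure of B cells. Both read 5′ to 3′ on the plus strand and hold no base that GENCODE annotates as an exon. The Vpreb3 stretch lies before the start of the shorter annotated transcript and within the first intron of a longer one. Capitals mark the matched motif.
Vpreb3, chr10:75948050-75948299: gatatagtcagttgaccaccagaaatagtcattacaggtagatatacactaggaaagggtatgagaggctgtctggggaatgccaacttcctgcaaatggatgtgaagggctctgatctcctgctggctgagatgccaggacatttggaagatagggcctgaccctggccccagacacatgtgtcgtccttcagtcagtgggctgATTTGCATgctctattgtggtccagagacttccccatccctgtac
Cd79a, chr7:24897247-24897380: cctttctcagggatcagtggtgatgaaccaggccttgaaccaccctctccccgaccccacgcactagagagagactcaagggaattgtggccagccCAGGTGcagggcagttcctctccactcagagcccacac
The Vpreb3 stretch ends at the base before the RefSeq start and holds the octamer ATGCAAAT, which binds Oct factors, on the minus strand, so that ATTTGCAT is read here at -45 to -38. This octamer is in 1.61% of the 27025 promoters of that table. The Cd79a stretch is 134 bases long, from -250 to -117, and holds CAGGTG, an E protein motif, at -154 to -149. That motif is common, in 17.1% of promoters, and is also at -131 to -126 before Xbp1. Both strands were searched for 5 motifs as fixed strings with no mismatch allowed, and no matches overlapped. The Ebf1 motif, in 0.788% of promoters, GAGGAAGT of Spi-B and PU.1, in 2.44%, and TGACGTGG of Xbp1, in 0.503%, had no match in the windows of these 5 members, nor did Spib and Igj hold any of the motifs. Sites that depart from these strings were not searched for, so a missing match does not mean that a promoter lacks a site. A match of letters is a description of the sequence only.

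The count table held 21016 cells, from 1795, 7439 and 9846 cells in the sham, 7 dpi and 28 dpi vehicle libraries to 492, 504 and 940 under PLX5622. Unique molecular identifiers (UMIs, counted molecules) summed to between 2606149 and 35694246 per library, with 2268.5 to 5127 in the median cell. The authors' clusters are numbered, and the names used here rest on marker genes, with "-like" for a cluster where all detected markers of a type, or all but 1, were highest. Cluster 7 held 653 B-like cells, and the 4 members that served as B cell markers (Cd79a, Cd79b, Ly6d and Ms4a1) had their highest level in it. Libraries shared 44 cell barcodes, none of them in cluster 7. In each library the table lists a gene at 0 when fewer than 3 of its cells had it, which the per-library matrices do not.

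Cluster 7 cells made up 1.28% of the sham vehicle library (exact 95% interval 0.814 to 1.92), 2.55% at 7 dpi (2.21 to 2.94) and 3.34% at 28 dpi (3.00 to 3.72). Under PLX5622 the shares were 3.66% (2.18 to 5.72), 4.37% (2.76 to 6.53) and 7.55% (5.95 to 9.43). The counts behind them were 23, 190 and 329 cells under vehicle and 18, 22 and 71 under PLX5622. These shares depend on the number of microglia-like and macrophage-like cells. Of the cells outside those clusters, cluster 7 was 2.46% (1.56 to 3.66), 8.40% (7.29 to 9.62) and 12.9% (11.6 to 14.2) under vehicle and 3.96% (2.37 to 6.19), 6.41% (4.06 to 9.55) and 10.9% (8.59 to 13.5) under PLX5622, so that the order of the diets turned at 7 and 28 dpi and their intervals overlapped at each stage. All intervals in this text cover counting error only, without the spread between mice. Those of levels and ratios take each UMI alone, so they also leave out the spread between cells. Myeloid RNA in these cells differed between libraries. The 12 genes of a myeloid list, all detected, took 0.711%, 8.83% and 8.68% of the UMIs of cluster 7 in sham, 7 dpi and 28 dpi vehicle cords, against 0.146%, 2.51% and 0.466% with PLX5622. In the plot of myeloid share against depth, the 7 and 28 dpi vehicle libraries had a second set of deep cells, with 56 of 190 and 95 of 329 cells at or above 5% myeloid UMIs. Those cells had a median of 7075.5 UMIs against 1612 in the others at 7 dpi, and 3484 against 741.5 at 28 dpi. At most 2 cells of any other library were above the line. Levels are therefore given for all cells of cluster 7 and for the 498 cells below 5% where the difference matters.

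**Figure D1:**
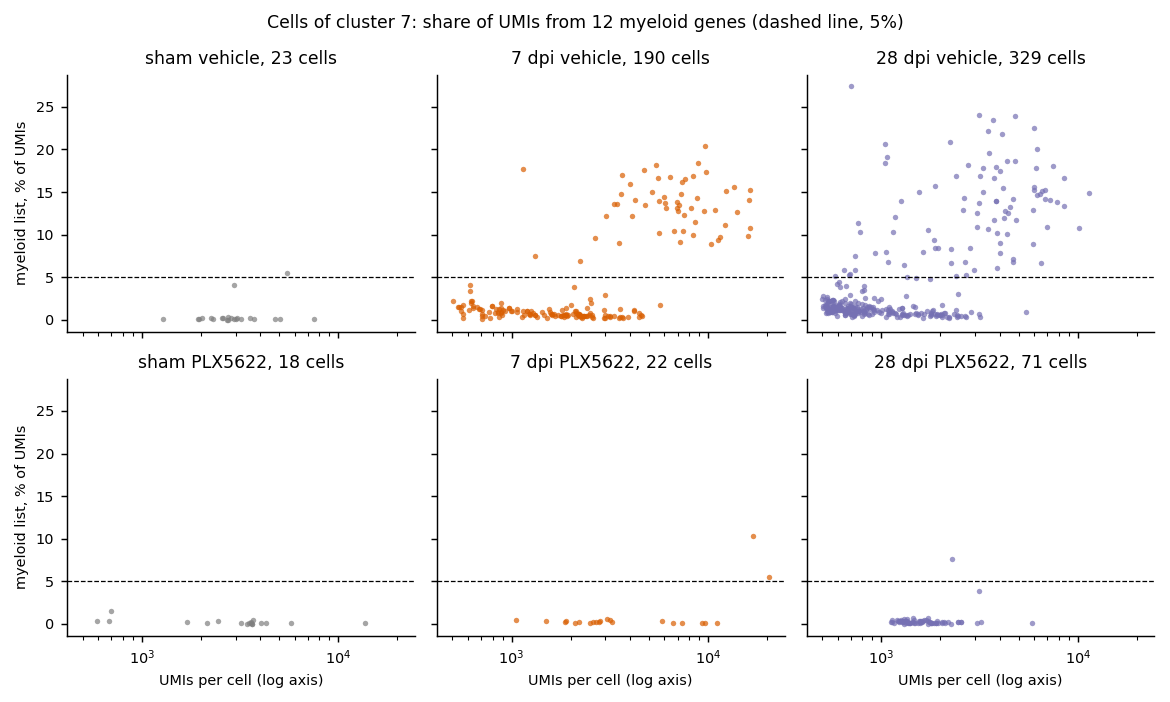
Each point is 1 cell of cluster 7, with its UMIs on a log axis and the percentage of them from 12 myeloid genes, and each panel is 1 library. In the 7 and 28 dpi vehicle libraries 56 and 95 cells lie on or above the dashed line at 5%, most of them deep, and the other 4 panels have 0 to 2 such cells.

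All members except Xbp1 had their highest level in cluster 7. Levels are a gene's UMIs per 1000000 UMIs of all genes in the same cells (CPM). Over all libraries, Ly6d was at 1920 CPM, Cd79a at 1689, Cd79b at 1483, Ms4a1 at 901, Igj at 562, Vpreb3 at 527, Mzb1 at 358 and Spib at 221. Of 12852 genes with at least 100 UMIs, 2.37% were highest in this cluster, and 8 of the 9 members were. The clusters were made from expression, these genes included, so this is a description. Cluster 7 held 99.1% of the UMIs of Igj, 92.5% of Ms4a1, 89.1% of Cd79a, 86.2% of Ly6d, 84.1% of Mzb1, 80.0% of Spib, 72.9% of Vpreb3 and 70.9% of Cd79b. It held only 1.71% of those of Xbp1. Xbp1 was at 244 CPM in endothelial-like cells, 231 in pericyte- or fibroblast-like cells, 221 in leptomeningeal-like cells and 196 in monocyte- and dendritic-like cells, against 114 in cluster 7.

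**Figure D2:**
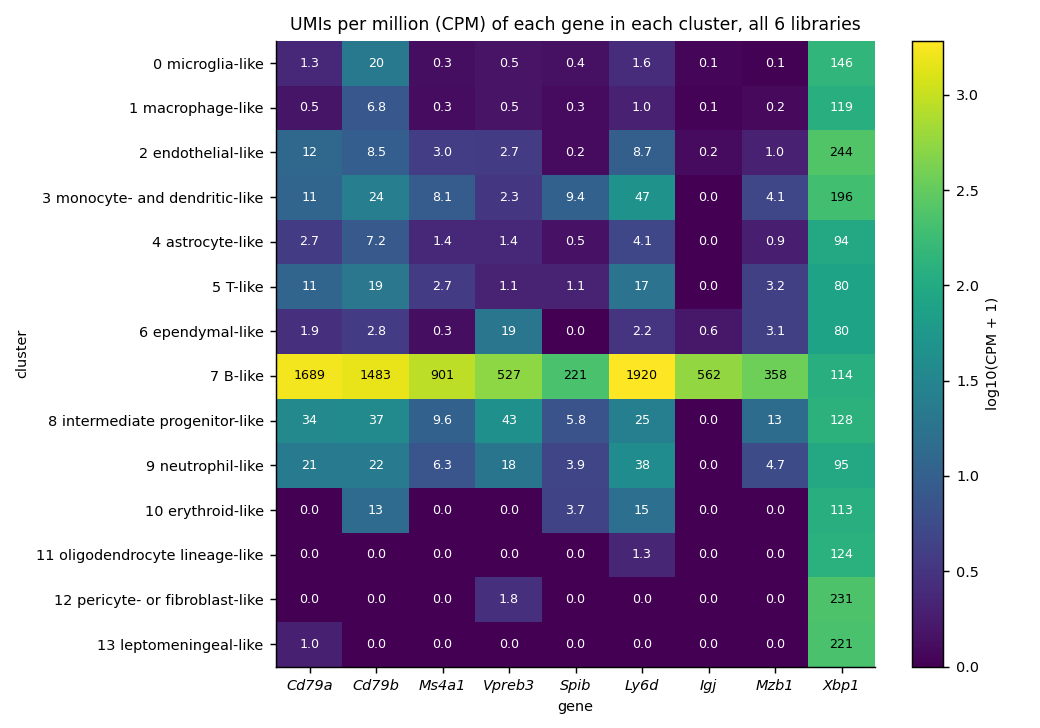
Rows are the 14 clusters and columns the 9 genes. Numbers are CPM over all 6 libraries, and color is log10(CPM + 1). The row of cluster 7 stands out for every gene but Xbp1, which lies between 79.9 and 244 CPM throughout.

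Outside cluster 7 the members were found in different cells. Among the 20363 other cells, 70.5% of those with a Ms4a1 UMI also had Cd79a, against 50.8% for Mzb1, 37.7% for Ly6d, 32.2% for Vpreb3, 30.3% for Spib, 9.43% for Cd79b and 0.735% for Xbp1. Of all those other cells, 117 had Cd79a. Inside cluster 7 the same share was 86.5% for Xbp1 and 92.6% to 97.4% for those other genes. There 602 of all 653 cells had Cd79a, so these shares were near that of the whole cluster. Vpreb3 had a further place in ependymal-like cells, the ciliated lining of the central canal. Ependymal-like cells had 20.3, 14.6 and 27.3 CPM at sham, 7 and 28 dpi with vehicle and 16.2, 16.1 and 12.6 CPM with PLX5622, from 5 to 21 UMIs each and with overlapping intervals. After each cell was thinned to 1000 UMIs, 16 of 622 ependymal-like cells (2.57%, 1.48 to 4.14) had Vpreb3, against 2 of 5792 microglia-like cells, 1 of 6699 macrophage-like cells and 0 of 615 T-like cells. Unthinned, it was 55 of 707 ependymal-like cells (7.78%), whose median depth was 2675 UMIs against 2201 in microglia-like cells.

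The receptor chains and CD20 were lowest at 7 dpi under each diet. Cd79a was at 3044 CPM in cluster 7 of sham vehicle cords, 1002 at 7 dpi and 1640 at 28 dpi, and at 3885, 2251 and 3109 CPM under PLX5622. Sham cords were the highest under each diet, and no 7 dpi interval overlapped that of sham. Cd79b was at 2921, 943 and 1412 CPM under vehicle and 3527, 1531 and 2753 CPM under PLX5622. Ms4a1 was at 1447, 589 and 914 CPM under vehicle and 1989, 944 and 1579 CPM under PLX5622. At 7 dpi over sham under vehicle, the log2 ratio was -1.60 (-1.82 to -1.38) for Cd79a, -1.63 (-1.86 to -1.40) for Cd79b and -1.30 (-1.61 to -0.97) for Ms4a1. In cells below 5% myeloid UMIs the same ratios were -0.69, -0.72 and -0.36, and Cd79a was at 3188, 1983 and 2747 CPM. The part of myeloid RNA in the rest was not tested. Under PLX5622 the ratios at 7 dpi were -0.79, -1.20 and -1.08 in all cells and -0.57, -0.99 and -0.999 below 5% myeloid UMIs.

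The balance between the receptor chains was steadier than their levels. Cd79b made up 49.0% of the Cd79a and Cd79b UMIs of cluster 7 in sham vehicle cords (44.2 to 53.8), 48.5% at 7 dpi and 46.3% at 28 dpi. Under PLX5622 it was 47.6%, 40.5% (35.9 to 45.1) and 47.0%, so that the 7 dpi library was lowest. Ms4a1 stood at 24.3 to 30.3 UMIs per 100 Cd79a and Cd79b UMIs in the 6 libraries.

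**Figure D3:**
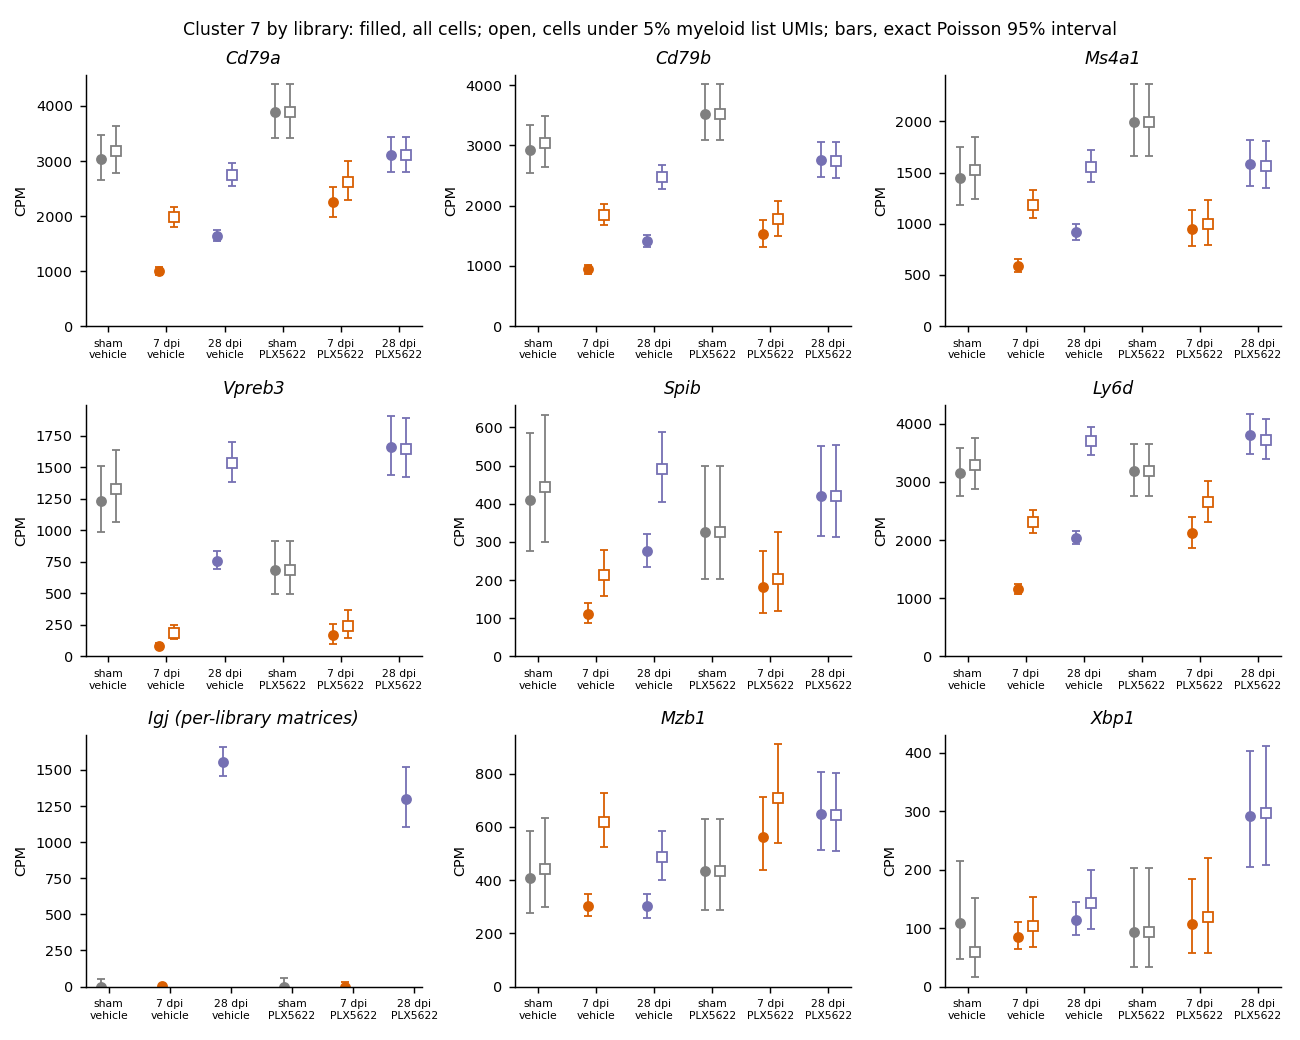
CPM of each gene in cluster 7 by library, with all cells as filled circles and cells under 5% myeloid UMIs as open squares. Bars are exact Poisson 95% intervals, and Igj is read from the per-library matrices. Vpreb3 is near the bottom at 7 dpi under each diet and several times higher at 28 dpi in circles and squares alike.

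Vpreb3 had the widest spread over time of the members with UMIs in every library. It was at 1228 CPM in cluster 7 of sham vehicle cords (988 to 1510), 83.1 CPM at 7 dpi (62.6 to 108) and 758 CPM at 28 dpi (689 to 832). Under PLX5622 it was at 684 CPM (497 to 918), 166 (101 to 256) and 1660 (1440 to 1903). The 7 dpi libraries were lowest, and their intervals overlapped each other but no sham or 28 dpi library's. The log2 ratio of 28 over 7 dpi was 3.19 (2.78 to 3.62) under vehicle and 3.33 (2.66 to 4.07) under PLX5622. As background, every gene whose UMIs in the pair of libraries summed to 50 or more was compared in the same way. At 28 over 7 dpi, 3.85% of 2961 such genes were at least 2-fold higher and 1.62% lower under vehicle, and 6.38% of 549 were higher and 10.2% lower under PLX5622. Of the members, 3 of 9 were higher under vehicle, namely Vpreb3, Spib and Igj, and 2 of 7 under PLX5622, Vpreb3 and Spib, and none was lower. Below 5% myeloid UMIs the same genes passed, against 5.5% and 6.53% of all genes. Cells below 5% myeloid UMIs gave Vpreb3 ratios of 3.03 and 2.78, and cells thinned to 1000 UMIs 1.89 and 1.87, the smallest values apart from a setting that left 3 and 1 vehicle cells.

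Vpreb3 was set apart from the receptor chains themselves. Per 100 Cd79a and Cd79b UMIs there were 20.6 Vpreb3 UMIs in sham vehicle cords (16.6 to 25.3), 4.27 at 7 dpi (3.22 to 5.56) and 24.8 at 28 dpi (22.6 to 27.3). The PLX5622 libraries had 9.22 (6.70 to 12.4), 4.38 (2.67 to 6.76) and 28.3 (24.6 to 32.5). The intervals of the sham libraries of the 2 diets did not overlap, and those of the 7 dpi libraries did. Few cells gave the sham values, with 90 Vpreb3 UMIs in 13 of 23 cells under vehicle and 44 in 8 of 18 under PLX5622. The spread between those cells is not in the intervals. Against sham, Vpreb3 in cluster 7 had log2 ratios at 7 dpi of -3.89 (-4.40 to -3.39) under vehicle and -2.05 (-2.89 to -1.25) under PLX5622. At 28 dpi they were -0.70 (-1.03 to -0.35) and 1.28 (0.80 to 1.78), and below 5% myeloid UMIs 0.21 (-0.13 to 0.56) and 1.26. The sham library of each diet is shared by these comparisons.

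**Figure D4:**
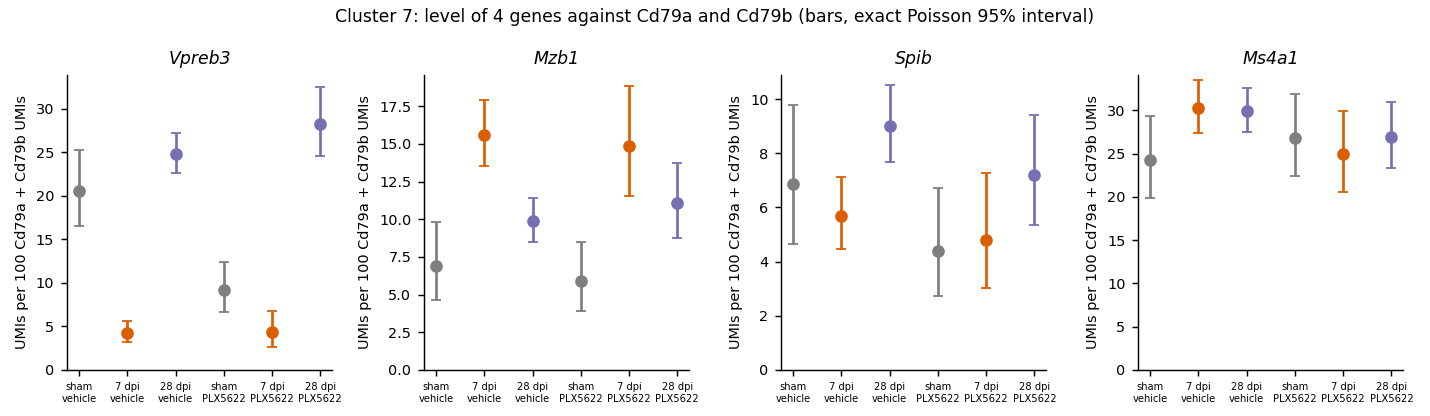
UMIs of 4 genes in cluster 7 per 100 UMIs of Cd79a and Cd79b, by library, with exact Poisson 95% intervals. Vpreb3 is at 4.27 and 4.38 at 7 dpi and at 24.8 and 28.3 at 28 dpi. Mzb1 has its highest values, 15.6 and 14.9, at 7 dpi, and Ms4a1 stays between 24.3 and 30.3.

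The share of cells with Vpreb3 moved with its level. After thinning to 1000 UMIs, 9 of 23 cluster 7 cells had it in sham vehicle cords, 14 of 146 (9.59%, 5.34 to 15.6) at 7 dpi and 34 of 160 (21.3%, 15.2 to 28.4) at 28 dpi. Under PLX5622 it was 5 of 15 cells, 4 of 22 (18.2%, 5.19 to 40.3) and 43 of 71 (60.6%, 48.3 to 72.0). Thinning left out 44 and 169 shallower cells at 7 and 28 dpi under vehicle, 3 in sham PLX5622 cords and none elsewhere. Unthinned, the counts were 13 of 23, 32 of 190 and 159 of 329 cells under vehicle, and 8 of 18, 7 of 22 and 47 of 71 under PLX5622. Median depth was 2850, 2209 and 932 UMIs with vehicle, against 3539, 2937.5 and 1569 with PLX5622, so that the 28 dpi libraries were shallower than the 7 dpi ones.

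Cells of cluster 7 were also sorted by Vpreb3 and the mature B cell gene Ms4a1. Of the 653 cells, 174 had both, 92 had Vpreb3 only, 280 had Ms4a1 only and 107 had neither. Ms4a1 was in 174 of the 266 Vpreb3 cells and in 454 of all 653, so it was no more frequent in Vpreb3 cells. At 7 dpi under vehicle, Ms4a1 only was the most frequent class, with 120 of 190 cells, against 11 with Vpreb3 only and 21 with both. At 28 dpi under vehicle there were 65 cells with Vpreb3 only, 94 with both and 114 with Ms4a1 only. At 28 dpi under PLX5622 the counts were 12, 35 and 17 of 71. Few cells had Rag1, which starts antigen receptor gene rearrangement. In the matrices it had 22 UMIs in 18 cluster 7 cells of the 28 dpi vehicle library, 14 of them with Vpreb3, 5 UMIs in 2 cells of sham and 2 UMIs in 1 cell of 7 dpi vehicle cords, 3 UMIs in 2 cells at 28 dpi under PLX5622 and none in the other PLX5622 libraries. The partners of the surrogate light chain, Vpreb1 and Igll1, had 8 and 5 UMIs in the Vpreb3 cells of cluster 7.

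A second, smaller set of Vpreb3 cells was in cluster 8, whose markers were those of dividing, intermediate progenitor-like cells. There 24 of 617 cells held 184 Vpreb3 UMIs, and 17 of the 24 were from the 28 dpi vehicle library. Of these 24 cells, 22 had Cd79a, 7 had Ms4a1, 19 had Mki67, a gene of dividing cells, and 6 had Vpreb1 or Igll1. A single cell of the sham PLX5622 library held 56 of the UMIs. In cluster 7, 1 of 266 Vpreb3 cells had Mki67. Mki67 was among the markers that named cluster 8, so this difference describes the clusters and is no finding on Vpreb3.

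Spib followed Vpreb3 with a smaller range. It was at 409 CPM in sham vehicle cords, 110 at 7 dpi and 275 at 28 dpi, and at 326, 182 and 421 CPM under PLX5622. The log2 ratio of 28 over 7 dpi was 1.32 (0.91 to 1.74) and 1.21 (0.46 to 2.00), and 1.20 and 1.05 below 5% myeloid UMIs. Against the receptor chains its spread was narrow, between 4.40 and 9.02 UMIs per 100 Cd79a and Cd79b UMIs. Ly6d was at 3153, 1161 and 2043 CPM under vehicle and at 3185, 2119 and 3813 CPM under PLX5622. Its ratio of 28 over 7 dpi was 0.82 (0.68 to 0.95) and 0.85 (0.63 to 1.07).

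Ly6d and Spib were also in cells without the receptor chains. In cluster 7, 14 cells had no Cd79a or Cd79b UMI, 8 at 7 dpi and 6 at 28 dpi under vehicle. All 14 had Ly6d, with 78 UMIs, and 9 had Spib. As a set these cells were rich in pDC genes. They held 63 UMIs of Siglech in 8 cells, 35 of Cox6a2 in 9 cells and 33 of Ccr9 in 9 cells, while the 639 other cells of the cluster had 63, 32 and 6 UMIs of these genes. The set was mixed, as 2 of the 14 cells had Ms4a1, 3 had Vpreb3 and 1 had 328 Igj UMIs. Siglech and Cox6a2 were also in microglia-like cells, at 517 and 63.0 CPM, against 2203 and 1224 CPM in the 14 cells. The monocyte- and dendritic-like cluster 3 had 16 Ly6d cells without the receptor chains, with 116 UMIs of Ly6d, 95 of Siglech, 79 of Cox6a2 and 30 of Ccr9. Ly6d in cluster 3 was uneven, at 110, 14.2 and 67.4 CPM under vehicle, 0 in sham and 7 dpi PLX5622 cords and 196 CPM at 28 dpi under PLX5622. In that last library 5 cells with Siglech, Cox6a2 and Ccr9 held 47 of the 61 Ly6d UMIs. In sham vehicle cords 1 cell without Siglech held all 50. The cells were picked by these genes after their values were seen, so no cell type is named from them.

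Igj was nearly all in 3 cells. The matrices held 1088 Igj UMIs in 16 cells of the table, and 1075 of them (98.8%) were in 3 cells of cluster 7. The other 13 cells had 1 UMI each. The first cell, at 28 dpi under vehicle, had 586 Igj UMIs among 2422 (24.2%), with 9 of Mzb1, 2 of Xbp1, 2 of Cd79a, 6 of Sec11c and 1 of Prdm1, the repressor that drives plasma cell fate. The second, of the same library, had 328 among 2113 (15.5%), with 8 of Mzb1, 6 of Ly6d and 1 of Sdc1, the plasma cell surface protein CD138, and no Cd79a. The third was from 28 dpi PLX5622 cords. It had 161 among 5839 (2.68%), with 33 of Mzb1, 26 of Xbp1, 24 of Ly6d, 22 of Sec11c, a subunit of signal peptidase, and 9 of Tnfrsf17, the survival receptor BCMA. None of the 3 had a UMI of Ms4a1. The table lists Igj at 0 in the library of the third cell, where 2 cells had it.

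These cells set the plasma cell values of their libraries. Igj in cluster 7 was 1555 CPM at 28 dpi under vehicle and 1.71 CPM without 2 cells. Its other listed values were 0, 3.02, 0, 0 and 0 CPM in sham vehicle, 7 dpi vehicle and the 3 PLX5622 libraries, and with the matrix count the 28 dpi PLX5622 library was at 1301 CPM. No Igj was detected in cluster 7 of either sham library, where a count of 0 allows up to 3 UMIs of 73262 and 64355. In the same 28 dpi PLX5622 cell were 26 of 36 Xbp1 UMIs of cluster 7, so that Xbp1 was at 291 CPM with it and at 85.0 CPM (40.7 to 156) without it. The other 5 libraries had Xbp1 at 109, 84.6, 114, 93.2 and 108 CPM with overlapping intervals. Immunoglobulin constant genes were not analysed here.

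Mzb1 was spread over many more cells, with UMIs in 272 cells of cluster 7. It was at 409 CPM in sham vehicle cords, 304 at 7 dpi and 301 at 28 dpi, and at 435, 563 and 648 CPM under PLX5622, the last of which was 399 CPM without the Igj cell. Against the receptor chains, Mzb1 was highest at 7 dpi under each diet. It stood at 6.86 UMIs per 100 Cd79a and Cd79b UMIs in sham vehicle cords (4.63 to 9.80), 15.6 at 7 dpi (13.5 to 17.9) and 9.86 at 28 dpi (8.46 to 11.4). The PLX5622 libraries gave 5.87 (3.90 to 8.48), 14.9 (11.6 to 18.9) and 11.05 (8.76 to 13.8). The 7 dpi libraries were above both sham libraries with no overlap. The intervals of 7 and 28 dpi overlapped under PLX5622, but the Igj cell held 33 of the 80 Mzb1 UMIs at 28 dpi, and without it the value was 6.54 (4.80 to 8.69), below 7 dpi with no overlap. Without its Igj cells the 28 dpi vehicle library was at 8.92 (7.59 to 10.4). In cells below 5% myeloid UMIs Mzb1 was at 443, 618 and 486 CPM under vehicle and 435, 707 and 643 under PLX5622.

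Against the background of all genes, more members were lower at 7 dpi in cluster 7 as a whole than in its cells low in myeloid RNA. At 7 dpi over sham under vehicle, 6 of 8 members with at least 50 UMIs were at least 2-fold lower and none was higher, where 18.1% of 1768 genes were lower and 16.6% higher. Below 5% myeloid UMIs it was 2 of 7, Vpreb3 and Spib, against 13.3% of 693 genes. Under PLX5622, 3 of 6 members were lower at 7 dpi, Cd79b, Ms4a1 and Vpreb3, against 5.09% of 393 genes, and none higher, against 10.7%. The count under PLX5622 was 1 with TMM scaling or DESeq2 size factors, and the vehicle count was 4 with either and 2 with every cell weighted alike. Below 5% myeloid UMIs it was 1 of 6, Vpreb3, against 3.06% of 294. At 28 dpi over sham, 1 of 9 members under vehicle (Igj) was higher, against 14.3% of genes, and 1 (Cd79b) lower, against 11.9%. Under PLX5622 it was 1 of 7 higher, Vpreb3, against 6.40%, and 0 lower, against 3.79%.

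The PLX5622 diet was compared with vehicle at each stage. In sham cords none of 7 members in cluster 7 was 2-fold apart, where 3.12% of 321 genes were higher and 7.17% lower, and Vpreb3 was the lowest, at -0.85 (-1.40 to -0.31). At 7 dpi 1 of 8 was higher, Cd79a with 1.17 (0.96 to 1.37), against 5.91% of 1826 genes, and none lower, against 13.3%. At 28 dpi Vpreb3, Mzb1 and Xbp1 were higher, 3 of 9, against 6.86% of 1865 genes, with ratios of 1.13, 1.11 and 1.36. The other B cell members had ratios of 0.61 to 0.96 there. Cells below 5% myeloid UMIs gave smaller values at 28 dpi: 0.17 (-0.01 to 0.36) for Cd79a, 0.15 for Cd79b, 0.01 for Ms4a1, 0.10 (-0.16 to 0.35) for Vpreb3, -0.22 for Spib, 0.01 for Ly6d and 0.41 (-0.03 to 0.83) for Mzb1. Xbp1 had 1.06 (0.34 to 1.78) there. Without the 3 Igj cells, the 28 dpi ratio in cluster 7 was -0.39 for Xbp1 and 0.54 for Mzb1, so that neither was 2-fold higher. Igj, at 0 in the table for PLX5622, passed the lower line for that reason alone, where 14.7% of genes were lower. In cells below 5% myeloid UMIs 2.15% of 932 genes were 2-fold higher, and of the members Xbp1 alone.

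Over all cells of a library, levels follow both the share of cluster 7 cells and the levels in them. Cd79a was at 34.1, 20.8 and 40.5 CPM under vehicle and at 115, 66.2 and 107 CPM under PLX5622. The log2 ratio of PLX5622 over vehicle was 1.75, 1.67 and 1.41 at sham, 7 and 28 dpi. Of the members, 7 of 8 in sham cords, 6 of 8 at 7 dpi and 7 of 9 at 28 dpi were at least 2-fold higher, where 16.7%, 24.5% and 22.3% of all genes were. At 7 dpi over sham, 1 of 8 members (Vpreb3) under vehicle and 2 of 8 (Vpreb3 and Cd79b) under PLX5622 were at least 2-fold lower, where 34.7% and 18.5% of genes were. A single cluster 8 cell held 56 of the 112 Vpreb3 UMIs of sham PLX5622 cords. Without it the Vpreb3 ratio at 7 dpi over sham under PLX5622 was -0.97 (-1.56 to -0.39) instead of -1.96, that at 28 dpi over sham 1.43 instead of 0.44, and that of PLX5622 over vehicle in sham cords 0.24 (-0.23 to 0.71) instead of 1.24. At 28 over 7 dpi 4 of 9 and 4 of 8 were higher, where 3.94% and 2.58% of genes were. The median gene was itself shifted by 0.27, 0.39 and 0.33 in the comparisons between diets, and by -0.68 and -0.42 at 7 dpi over sham. Xbp1, found in every cluster, had ratios of -0.43, 0.41 and -0.07.

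Cd79b and Xbp1 were the members with a pattern of their own in myeloid cells. Microglia-like cells had 354 UMIs of Cd79b but 23 of Cd79a, so that Cd79b made up 93.9% of the pair (91.0 to 96.1) there and 46.8% in cluster 7. Cd79b in these cells was at 42.5 CPM in sham vehicle cords (34.1 to 52.3), 18.7 at 7 dpi (15.5 to 22.2) and 15.5 at 28 dpi (12.9 to 18.5). In macrophage-like cells it was at 12.0, 6.64 and 6.27 CPM. The few microglia-like cells left under PLX5622, 29, 61 and 126, gave 35.3, 15.7 and 11.6 CPM from 5 or 6 UMIs each, with wide intervals. After thinning, 5.11% of microglia-like cells had a Cd79b UMI in sham vehicle cords (3.42 to 7.30), 1.46% at 7 dpi and 1.30% at 28 dpi, while 0.104% of microglia-like cells over all libraries had Cd79a. Xbp1 in microglia-like cells was at 298 CPM in sham vehicle cords (275 to 322), 96.0 at 7 dpi and 150 at 28 dpi, and at 318 (232 to 425), 88.7 and 100 CPM under PLX5622. Each diet had its highest Xbp1 in sham cords. The range was narrower in endothelial-like cells, with 314, 219 and 186 CPM under vehicle and 258, 342 and 258 CPM under PLX5622.

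**Figure D5:**
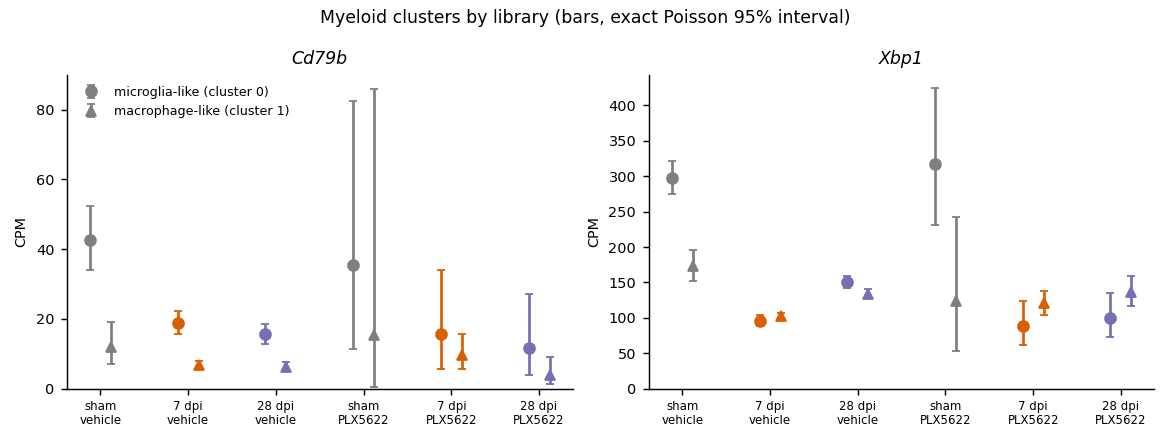
Cd79b and Xbp1 in microglia-like cells (circles) and macrophage-like cells (triangles) by library, in CPM with exact Poisson 95% intervals. In the vehicle libraries both genes are highest in sham microglia-like cells, at 42.5 and 298 CPM, and intervals are wide under PLX5622, where few such cells remained.

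Further genes of the same pathways were counted from lists. Of 12 coreceptors and signal proteins of the B cell receptor, 10 were highest in cluster 7, as were 6 of 10 B lineage transcription factors, 8 of 10 detected genes of resting B cells, 4 of 10 of B precursors and 1 of 9 of activated B cells. Of 12 further plasma cell genes, 3 were highest there, and 1 of 12 endoplasmic reticulum genes that Xbp1 induces. Among the 12852 genes with at least 100 UMIs it was 2.37%, a minimum that the lists did not have. The clusters were made from expression, so these counts are a description. At 28 over 7 dpi under vehicle, 1 of 11 tested receptor signaling genes was at least 2-fold higher, with a list median of 0.30, 1 of 9 lineage factors (0.31), 2 of 3 precursor genes (1.03), 0 of 3 plasma cell genes (0.16) and 0 of 11 Xbp1 targets (0.29), and none of these was 2-fold lower. Of all 2961 genes 3.85% were higher and 1.62% lower, with a median of 0.12. The transcription factors Sox4 and Myb of early progenitors were lowest at 7 dpi under vehicle, as Vpreb3 was. Sox4 was at 341, 63.5 and 195 CPM under vehicle and 109, 0 and 138 CPM under PLX5622. Myb was at 109, 7.56 and 44.2 CPM under vehicle, at 0 in sham and 7 dpi PLX5622 cords and at 105 CPM at 28 dpi under PLX5622. Few UMIs gave the Myb values, with 8 in 2 cells of sham and 5 in 1 cell of 7 dpi vehicle cords. Il7r, the receptor of early B and T cells, was at 27.3, 33.2 and 57.8 CPM under vehicle and 0, 0 and 48.6 CPM under PLX5622. Under vehicle Il7r was lowest in sham cords, from 2 UMIs in 1 cell. Cd24a, a surface protein of immature B cells that was higher still in erythroid-like cells, was at 560, 207 and 423 CPM under vehicle and 761, 571 and 955 CPM under PLX5622. Bank1, an adaptor of the receptor, was at 423, 181 and 165 CPM and at 451, 406 and 437 CPM, and below 5% myeloid UMIs at 443, 380 and 243 CPM under vehicle. Pou2af1, the coactivator of Oct factors, was at 437, 148 and 177 CPM and at 295, 240 and 381 CPM, and below 5% myeloid UMIs at 472, 313 and 293 CPM under vehicle.

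Genes of other cell types were present in cluster 7 in varying amounts. The T and NK list, 8 of 10 genes detected, summed to 0 to 40.8 CPM, with Ncr1 at 0 throughout. The neutrophil list, 6 of 6, summed to 0 to 286 CPM. The erythroid list, 4 of 5, was at 3071, 242 and 88.4 CPM under vehicle and 6992, 4867 and 32.4 CPM under PLX5622, so it was high in both sham libraries and at 7 dpi under PLX5622. The pDC list, 11 of 12, was at 356 to 866 CPM and the cycling list, 10 of 10, at 157 to 314 CPM. The antigen presentation genes of MHC class II, 10 of 10, summed to 18987, 8456 and 7035 CPM under vehicle and 25188, 17274 and 17763 CPM under PLX5622. Below 5% myeloid UMIs the sums were 19658, 16430.1 and 10507 CPM and 25188, 21181 and 17850 CPM, so that the 7 dpi vehicle library was closer to sham. The part of any of these in the members' values was not tested.

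Ligand genes of signals known to hold B cells in tissue had their highest RNA level in other clusters. The receptor genes Tnfrsf13c (BAFF receptor), Tnfrsf13b, Cxcr5 and Ccr7 were highest in cluster 7. Tnfrsf13c was at 382, 49.9 and 148 CPM under vehicle and 513, 108 and 308 CPM under PLX5622. Ccr7, which guides cells to lymphoid tissue, was at 478, 62.0 and 64.6 CPM and at 311, 91.0 and 154 CPM. Its ligand gene Ccl19 was highest in endothelial-like cells, like Cxcl12, which had 2559, 993 and 1502 CPM there under vehicle and 1699, 2202 and 1811 CPM under PLX5622. Tnfsf13b, which encodes BAFF, and Cxcr4, the receptor of Cxcl12, were highest in neutrophil-like cells, at 44.7 and 251 CPM. Most Tnfsf13b UMIs lay in other clusters, as neutrophil-like cells held 11 of 204, 15 of 248 and 26 of 657 at sham, 7 and 28 dpi under vehicle. Tnfsf13 had only 14 UMIs in the table, all at 7 dpi under vehicle and 13 of them in macrophage-like cells. Tnfrsf17 was at 7.22 CPM in microglia-like cells and 6.74 CPM in cluster 7, where 9 of its 11 UMIs were in 1 Igj cell. Cxcl13, the ligand of Cxcr5, was highest in cluster 3 and was seen almost only under vehicle. It was at 76.8, 211 and 745 CPM in that cluster at sham, 7 and 28 dpi. In the matrices over all cells it had 50, 564 and 658 UMIs under vehicle, or 6.96, 15.8 and 23.7 CPM, and 1, 0 and 4 UMIs under PLX5622, or 0.384 (0.00971 to 2.14), 0 and 1.08 (0.295 to 2.77) CPM. Il7 was not analysed here.

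The genes most like each member were found by Pearson's r of log2(CPM + 1) over 66 pairs of cluster and library with at least 20 cells. The pairs share libraries and clusters, and r is a description. Ms4a1 was closest to Faim3 (r = 0.98), Spib to Fcrla (0.95), Mzb1 to Fcrla (0.92), Cd79a to Pou2af1 (0.92), Ly6d to Fcrla (0.90), Vpreb3 to Mzb1 (0.87) and Cd79b to Ly6d (0.83). Igj had no close partner, with 0.43 for Ms4a1. Xbp1 was closest to Arf1, Bnip2 and Hdlbp (0.86, 0.86 and 0.85), none of them a B cell gene.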

How the data were processed

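The members and gene lists were chosen with earlier results of these data known. Per the labels and the study's methods, the authors aligned reads and counted UMIs with Cell Ranger (GRCm38/mm10), filtered and clustered cells with Seurat, and deposited raw UMI counts, as a matrix per library and as 1 table of all filtered cells with cluster numbers. The stated filter kept cells with 200 to 3000 genes and under 20% mitochondrial reads and genes in at least 3 cells. The table nevertheless held 49 to 289 cells over 3000 genes per library (51 at 28 dpi under vehicle), and left out 0 to 121 barcodes per library, all under 200 genes. Applied per library, the 3-cell rule set 506 to 1181 genes per library to 0, or 0.00288% to 0.0821% of its UMIs.

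From the counts, UMIs were summed per cluster and library in Python 3.11.15 with pandas 2.3.3, scipy 1.17.1 and numpy 2.4.6. CPM have exact Poisson, log2 ratios exact conditional binomial and shares exact Clopper-Pearson 95% intervals. Where 1 of the compared libraries had no UMI of a gene, its ratio was taken against 3 counts and given no interval. The background is every gene with 50 or more UMIs summed over the pair of libraries, and a call is a 2-fold difference. The ratio code was checked on simulated counts with known folds. With 1 library per group there was no test. Doublets were left in. Named genes are the members, up to 4 genes per list by UMIs in cluster 7, all 12 niche genes and the 3 most alike per member. Genes shown for single cells (Rag1, Vpreb1, Igll1, Mki67, Prdm1, Sdc1, Siglech, Cox6a2, Ccr9, Tnfrsf17) and Ncr1 were chosen after their values were seen, from the lists and markers. Alternatives used TMM factors of edgeR 4.0.16 and size factors of DESeq2 1.42.0 (R 4.3.3), equal cell weights, thinning, cell filters and other totals. The 5% myeloid line, scaling to Cd79a and Cd79b, the matrix counts and leaving out the 3 Igj cells or the sham cell with most Vpreb3 were chosen after seeing the data. A further gene of the lists is not reported here.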

Additional observations from a re-analysis of the deposited data

Results flagged for a closer look

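Vpreb3 in cluster 7 at 28 dpi over sham was lower under vehicle, with a log2 ratio of -0.70, and higher under PLX5622, with 1.28. Ly6d had -0.63 and 0.26 in the same comparisons. The difference between the diets was not tested, and in cells below 5% myeloid UMIs the vehicle ratios were 0.21 and 0.17. The PLX5622 over vehicle ratio of Vpreb3 took the values -0.85 (sham), 0.99 (7 dpi) and 1.13 (28 dpi), and below 5% myeloid UMIs -0.96, 0.35 and 0.10. The difference between stages was not tested either.

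The matrix of the 28 dpi PLX5622 library held 161 Igj UMIs in cluster 7, all in 1 cell, where the count table has 0.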

How the results depend on the processing

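No paired analysis was possible because each group is 1 library. For the same reason no replicate could be left out. Of the member ratios in cluster 7 under other settings, 596 were counted as within the main interval and 209 as outside it. A further 16 changed sign from a main ratio at least 2-fold apart whose interval held a single sign. Sign changes of smaller ratios were not counted apart. The 28 over 7 dpi ratio of Vpreb3 was lowest in thinned cells, with 1.89 under vehicle and 1.87 under PLX5622, and at least 2.46 and 2.43 elsewhere, apart from cells with fewer than 3 myeloid UMIs.

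The number of members at least 2-fold apart in cluster 7 was 6 (7 dpi over sham), 2 (28 dpi over sham) and 3 (28 over 7 dpi) under vehicle, 3, 1 and 2 under PLX5622, and 0, 1 and 4 for PLX5622 over vehicle at sham, 7 and 28 dpi. TMM scaling gave 1 (28 dpi over sham, vehicle), 1 (7 dpi over sham, PLX5622), 0 (diets at 7 dpi) and 2 (diets at 28 dpi), and DESeq2 size factors 1 and 1 for the first and second of these. Equal cell weights gave 2 and 0 against sham under vehicle, and 1, 0 and 0 between diets. Igj, part of the main counts at 28 dpi over sham under vehicle and between diets at 28 dpi, could not be scored with equal weights. Thinning to 1000 UMIs gave 5 at 28 dpi over sham under vehicle, and 0 (28 dpi over sham) and 1 (28 over 7 dpi) under PLX5622. Cells with at least 500 genes gave 5 at 28 dpi over sham under vehicle and 9 between diets at 28 dpi. Cells with fewer than 3 myeloid UMIs were at most 20 a library, and 0 at 7 dpi under PLX5622, so comparisons with that library could not be made. The others gave 0 and 1 against sham under vehicle and 0 at 28 dpi over sham under PLX5622. Between diets they gave 1 and 2 at sham and 28 dpi. At 28 over 7 dpi under vehicle the count was 0, but only 1 and 3 cells were left. So few cells gave members little chance to reach the minimum of UMIs, so this 0 does not show that members no longer differed. The number of members that reached the minimum in this setting is not given. Cells below 5% myeloid UMIs gave 2 and 1 against sham under vehicle, 1 at 7 dpi over sham under PLX5622, and 0 and 2 between diets at 7 and 28 dpi. Scaling to Cd79a and Cd79b gave 3 at 7 dpi over sham under vehicle, 1 at 28 over 7 dpi under PLX5622, and 1, 0 and 1 between diets. Totals without ribosomal protein genes gave 3 and 7 between diets at 7 and 28 dpi, and totals without myeloid and erythroid genes 1 at 28 dpi over sham under vehicle. The matrix counts gave 2 at 28 dpi over sham under PLX5622, as did a minimum of 20 UMIs. Without the 3 Igj cells it was 1 at 28 dpi over sham under vehicle and 2 between diets at 28 dpi. A 1.5-fold line gave 6 (28 dpi over sham) and 6 (28 over 7 dpi) under vehicle, 5 (7 dpi over sham) and 5 (28 over 7 dpi) under PLX5622, and 1, 7 and 9 between diets.

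Over all cells, TMM scaling gave 3 members at 28 dpi over sham under vehicle in place of 1, 1 and 3 at 7 and 28 dpi over sham under PLX5622 in place of 2 and 0, and 3, 3 and 4 between diets in place of 7, 6 and 8. All barcodes of the matrices gave 1 and 1 against sham under PLX5622. Cluster 7 held 2.46%, 8.40% and 12.9% of the vehicle cells outside clusters 0 and 1 and 10.9% at 28 dpi under PLX5622. With at least 500 genes its shares were 2.12% and 2.19% at 7 and 28 dpi under vehicle, and with cells below 5% myeloid UMIs alone 1.80% and 2.38%.

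Signs of ratios at least 2-fold apart changed in these cases, while smaller ratios that changed sign are not listed. With fewer than 3 myeloid UMIs the log2 ratio at 7 dpi over sham under vehicle was 0.30 for Cd79a, 0.50 for Cd79b and 0.20 for Vpreb3, Cd79b had 1.52 at 28 dpi over sham, Vpreb3 -0.63 at 28 over 7 dpi and -0.093 between diets at 28 dpi, and Xbp1 -0.83 at 28 dpi over sham under PLX5622. Against Cd79a and Cd79b, Ms4a1 had 0.32 and Ly6d 0.17 at 7 dpi over sham under vehicle. Without the 3 Igj cells, Igj had -0.82 at 28 over 7 dpi under vehicle, and Xbp1 had -0.13 and -0.34 at 28 dpi over sham and over 7 dpi under PLX5622 and -0.39 between diets. Equal cell weights gave Xbp1 -0.21 and -0.10 at 28 dpi over sham under PLX5622 and between diets, and thinning -0.20 at 28 over 7 dpi. Apart from the fewer cells or UMIs left, the cause was not tested.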
